A study of Mus musculus with 39 samples.

Results

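The course of sciatic nerve repair between 2 and 4 weeks post-crush (wpc) was followed in mice whose Schwann cells lack an intact leptin receptor (*Lepr*-cKO). Injured nerves collected at 4 wpc (4 libraries, animals KO-169, KO-175, KO-176 and KO-177) were set against injured nerves collected at 2 wpc (4 libraries, animals KO-125, KO-128, KO-135 and KO-138). The same difference between healthy contralateral nerves (5 libraries at 4 wpc, 6 at 2 wpc) was subtracted, since the 2 wpc and 4 wpc nerves came from different mice. These 19 libraries, from 11 *Lepr*-cKO mice, are part of 39 libraries from 22 mice. Animals are named here by KO (*Lepr*-cKO) or WT (*Lepr*-ctrl) and the animal number of the labels. The remaining *Lepr*-cKO library, the injured 2 wpc nerve of animal KO-126, was left out because 7.04% of its counts lay on skeletal muscle genes, against 0.00447 to 0.00949% in the 19 libraries used. The libraries were thus chosen by the labels and by this measured muscle content, which is a description only.

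*Lepr*-cKO mice carried floxed *Lepr* alleles and *Dhh*-Cre, a Cre driver that recombines in Schwann cells from embryonic development onward, on a C57BL/6 background. Control mice (*Lepr*-ctrl) carried the floxed alleles without Cre. Mice of both sexes, 2 to 4 months of age, received a crush at mid-femoral level on one side. RNA came from endoneurium, the nerve interior after removal of the perineurium, and thus from Schwann cells, fibroblasts, macrophages, vessels and other cells together. In such bulk tissue fewer cells of a type and less RNA per cell cannot be told apart. Cre removes the first exon of *Lepr*, after which a shortened transcript can still be made, so counts over the whole gene do not check the deletion. The 2 times are also 2 cohorts of mice, and time and cohort cannot be told apart in the injured nerves alone.

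After a crush, axons distal to the injury break down and Schwann cells shed their myelin, divide, and act with macrophages to clear debris. As axons regrow, Schwann cells leave the cell cycle, sort axons and form new myelin, while endoneurial fibroblasts rebuild the collagen matrix. Leptin, a hormone of adipocytes, signals through a cytokine receptor to JAK and STAT proteins.

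Total counts were 26089596 to 31081921 in the injured 2 wpc libraries, 15071347 to 25923752 in the injured 4 wpc libraries and 22717084 to 42143173 in the healthy libraries. Schwann cell markers were present in all 19 libraries, with *Sox10* at 295 CPM (counts scaled to the size of the library) or more, *Erbb3* at 229 CPM or more and *S100b* at 78.1 CPM or more. No 2 of the 39 libraries held identical counts. Of the injured libraries, the 2 wpc library of animal KO-135 stood apart with the highest counts on endothelial and mitochondrially encoded genes, and the 4 wpc library of animal KO-169 with the lowest mitochondrial share. Calls of named genes that were lost without one of them are stated beside the gene. The genes under other observations, at the end, were not followed in those fits.

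Between 2 and 4 wpc, 385 of 18394 tested genes (2.09%) differed along the cohort-corrected course, 277 higher (1.51%) and 108 lower (0.587%). A gene was called at a Benjamini-Hochberg adjusted p under 0.05 in edgeR's quasi-likelihood test and an absolute log2 fold change above 1. The higher genes held structural genes of compact myelin and its membrane scaffold, fibroblast matrix genes and complement genes, and the lower genes held mitotic genes. In injured nerves without the cohort subtraction, 1064 genes (5.78%) were called, 496 higher (2.7%) and 568 lower (3.09%). Healthy nerves of the 2 cohorts differed in 39 genes (0.212%), 8 higher (0.0435%) and 31 lower (0.169%). With animal KO-126 kept in, 261 genes were called along the course, of which 217 were among the 385. Leaving out the injured 2 wpc library of animal KO-135 gave 249 calls, and leaving out the injured 4 wpc library of animal KO-176 gave 254.

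For most called genes the injured part of the course was the larger. Of the 277 higher genes, 233 were also called higher in injured nerves alone, and in 214 the injured 4 wpc libraries all lay above the injured 2 wpc libraries (77.3%, against 6.11% of tested genes; the same libraries made these calls). Of the 108 lower genes, 84 were called lower in injured nerves alone, and in 77 the libraries lay apart in that direction (71.3%, against 6.12% of tested genes). The median log2 fold change of the higher genes was 1.58 along the course, made up of 1.43 in injured and -0.1 in healthy nerves. For the lower genes it was -1.58, made up of -1.5 and 0.1. The healthy part was the larger one in 10 of the higher and 8 of the lower genes.

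The called genes were then placed against the healthy libraries, which with the injured ones had also served to choose them. At 2 wpc, 235 of the 277 higher genes (84.8%) were below every healthy 2 wpc library in all 4 injured libraries, and at 4 wpc 62.5% of them were below every healthy 4 wpc library. Over all tested genes those shares were 23.7 and 21.3%. Of the 108 lower genes, 73 (67.6%) were above every healthy library at 2 wpc and 20 (18.5%) at 4 wpc, against 24.4 and 20.8% of all tested genes. The higher genes were thus mostly below the healthy level at both times. The lower genes were mostly above it at 2 wpc, and at 4 wpc 20 were above, 23 below and the others overlapped the healthy libraries.

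**Figure D1:**
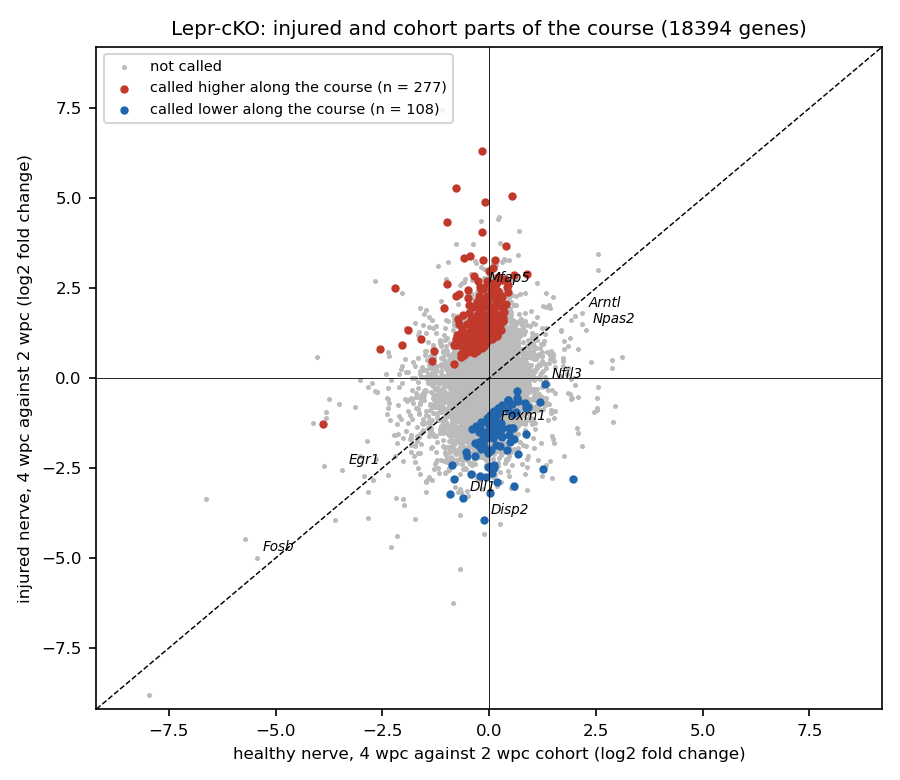
Each point is 1 of 18394 tested genes, with its log2 fold change between the healthy 4 wpc and 2 wpc cohorts on the x axis and between injured 4 wpc and 2 wpc nerves on the y axis, and the dashed line marks equal changes. The 277 genes called higher (red) and 108 called lower (blue) mostly lie along the y axis near a healthy change of 0, while *Arntl*, *Npas2*, *Fosb* and *Egr1* lie near the dashed line.

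*Lepr* (ENSMUSG00000057722, GRCm38 chr4:101717404-101815352, plus strand) encodes the leptin receptor. Its level in injured nerves at 2 wpc was 31.2, 76.3, 122.8 and 63 CPM in animals KO-125, KO-128, KO-135 and KO-138. At 4 wpc it was 30.5, 29.8, 23.7 and 36.5 CPM in animals KO-169, KO-175, KO-176 and KO-177. Healthy nerves held 5.83 to 14.7 CPM (median 10) at 2 wpc and 6.1 to 10.9 CPM at 4 wpc. Injured nerves thus lay above all healthy nerves at both times, with 3 of 4 libraries at 2 wpc above all 4 wpc libraries and animal KO-125 within their range. The direct difference between injured nerves passed the test (log2 fold change -1.28, adjusted p = 0.00626), and the cohort-corrected course did not (-0.97 ± 0.44 SE, adjusted p = 0.235 in edgeR).

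Genes that the study followed by qPCR were not called along the course. *Jun*, the transcription factor of the repair Schwann cell, was at 133.7, 122.6, 239.9 and 197 CPM at 2 wpc and at 233, 95.2, 86.7 and 82.2 CPM at 4 wpc, so that animal KO-169 alone stayed within the 2 wpc range (course -0.35, adjusted p = 0.602). *Leprot* (course 0.1), *Shh* (-0.47), *Pou3f1* (-0.37) and *Egr2* (0.45) had adjusted p values of 0.538 to 0.891. *Rnf41*, a ubiquitin ligase, was higher in all 4 injured libraries at 4 wpc (52.3 to 55.5 CPM) than at 2 wpc (40.4 to 45 CPM), with a course of 0.28 ± 0.11 (adjusted p = 0.189). Of 20 tested members of leptin receptor signalling, none was called, with a median course of -0.01. *Stat3* and *Socs3*, the signal transducer and its feedback inhibitor, had courses of -0.16 and -0.55.

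Genes of cell division had lower values at 4 wpc than at 2 wpc. Of 30 cell cycle genes tested, 3 were called lower and 0 higher (against 0.587 and 1.51% of tested genes), 29 had a negative course, and the median was -0.96 (all tested genes -0.003). In injured nerves alone 20 of the 30 were called lower (against 3.09% of tested genes). The summed level of the 30 genes was 379 to 461 CPM in injured nerves at 2 wpc, 141 to 236 CPM at 4 wpc and 101 to 134 CPM in healthy nerves. The libraries at 4 wpc thus lay between the injured 2 wpc and the healthy libraries.

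*Foxm1* (chr6:128362967-128376146, plus strand) encodes the transcription factor that drives genes of the G2 and M phases. It was at 14.8, 13.9, 14.2 and 11.3 CPM in injured nerves at 2 wpc and at 5.94, 6.74, 5.2 and 3.37 CPM at 4 wpc, against 2.69 to 5.44 CPM (median 4.23) in healthy 2 wpc and 3.85 to 5.44 CPM in healthy 4 wpc nerves. The groups of injured libraries did not overlap, and animals KO-176 and KO-177 lay within the joint range of the healthy libraries. *Foxm1* fell along the course by 1.46 ± 0.29 on the log2 scale (adjusted p = 0.0033, edgeR), and stayed called in all 30 alternatives run, with log2 fold changes of -1.68 to -1.3.

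*Kif11* (chr19:37376403-37421859, plus strand), the kinesin motor that separates the spindle poles, was at 11.4, 9.98, 10.1 and 11.9 CPM at 2 wpc and at 3.61, 2.91, 2.1 and 0.972 CPM at 4 wpc. *Aurkb*, the kinase of the chromosomal passenger complex, was at 7.82, 9.95, 7.49 and 6.25 CPM at 2 wpc and at 3.54, 2.19, 1.45 and 1.88 CPM at 4 wpc. In both genes the libraries of the 2 times lay apart. Healthy nerves held 0.388 to 0.932 CPM of *Aurkb*, below all injured libraries, and 0.543 to 2.12 CPM of *Kif11*, a range that 2 of the 4 wpc libraries entered. The courses were -1.63 ± 0.47 (adjusted p = 0.0457) and -1.59 ± 0.43 (adjusted p = 0.0293), and the calls were lost in 18 of 29 alternatives for *Kif11*, the one without the injured 2 wpc library of animal KO-135 among them (adjusted p = 0.0622), and in 10 of 29 for *Aurkb*. With animal KO-126 kept in, the adjusted p was 0.0898 for *Kif11* and 0.0626 for *Aurkb*. *Mki67*, the proliferation antigen, was at 33.2 to 45.8 CPM at 2 wpc and 4.08 to 15.5 CPM at 4 wpc without overlap, but its course of -1.34 ± 0.54 missed the threshold (adjusted p = 0.172). *Top2a*, the DNA topoisomerase of dividing cells, had a course of -0.94 (adjusted p = 0.295), as it was also 0.84 lower on the log2 scale in the healthy 4 wpc cohort. The number of cell cycle members called lower was 7 with the animal as a block and 1 with animal KO-126 kept in, and 1 to 8 when single libraries were left out.

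Regulators of cyclin-dependent kinases went both ways. *Cdkn3*, a phosphatase that acts on these kinases, was at 2.93, 3.09, 2.83 and 2.51 CPM at 2 wpc and at 0.672, 0.603, 0.5 and 0.194 CPM at 4 wpc. Its healthy level was 0.321 to 0.876 CPM, so that animal KO-177 lay below the healthy range and the other 3 within it at 4 wpc. *Cdkn3* fell by 2.45 ± 0.48 (adjusted p = 0.00281). *Cdkn1a*, which encodes the kinase inhibitor p21, was at 177.07, 129.68, 77.08 and 135.96 CPM at 2 wpc and at 403.73, 302.1, 445.29 and 237.74 CPM at 4 wpc. All 4 wpc libraries were above all 2 wpc libraries and below the healthy range of 497 to 732 CPM, and the gene rose by 1.24 ± 0.3 (adjusted p = 0.0135). Of the 8 CDK inhibitor genes 1 was thus called higher and 1 lower (against 1.51 and 0.587% of tested genes), and the other 6 were not called.

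Promoters of mitotic genes often hold the cell cycle genes homology region (CHR), whose core letters are TTTGAA on either strand. In RefSeq promoter sequences of GRCm38.p6, cut to the 200 bases before the start, these letters were present in 12.5% of 32851 entries, and in 8.41% of the 16177 entries of tested genes. Of the genes called lower, 73 matched, and 14 of their 94 entries (14.9%) held the letters, against 8.42% of 285 entries of 206 matched genes called higher. Of the 30 cell cycle genes 25 matched, and 8 of them (32%) held the letters. The windows of the called genes *Kif11* (chr19:37376182-37376381, plus strand) and *Cdkn3* (chr14:46760341-46760540, plus strand) are shown because both fell without overlap and hold 1 match each, 19 and 111 bases from the start. Capitals mark the match, here on the opposite strand. A match is a description and not a shown binding site.
Kif11: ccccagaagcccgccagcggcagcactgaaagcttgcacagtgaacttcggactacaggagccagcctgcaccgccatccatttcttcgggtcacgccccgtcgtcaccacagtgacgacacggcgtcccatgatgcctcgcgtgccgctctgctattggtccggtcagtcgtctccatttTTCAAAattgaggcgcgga
Cdkn3: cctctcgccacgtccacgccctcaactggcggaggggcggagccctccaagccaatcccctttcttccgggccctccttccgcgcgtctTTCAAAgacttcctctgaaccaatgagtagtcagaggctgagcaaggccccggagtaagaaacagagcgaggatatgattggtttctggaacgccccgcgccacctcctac

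Structural myelin genes were higher at 4 wpc as far as they were called. Of 30 tested, 3 were called higher and 0 lower (against 1.51 and 0.587% of tested genes), 23 had a positive course and the median was 0.72. In injured nerves alone 9 were called higher (against 2.7% of tested genes).

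*Drp2* (chrX:134404551-134456573, plus strand) encodes a dystrophin-related protein that joins periaxin at the outer Schwann cell membrane. It was at 411.2, 293.3, 136.4 and 354.4 CPM at 2 wpc and at 1152.5, 865.1, 1306 and 878.8 CPM at 4 wpc, against a healthy range of 3030 to 5290 CPM. The 4 wpc libraries lay above the 2 wpc libraries and below the healthy ones. *Drp2* rose by 1.75 ± 0.35 (adjusted p = 0.00353) and stayed called in the 30 alternatives.

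*Prx* (chr7:27499324-27520214, plus strand), which encodes periaxin itself, was at 1140, 807, 705 and 773 CPM at 2 wpc and at 3470, 1770, 2490 and 1640 CPM at 4 wpc. Healthy nerves held 5200 to 9340 CPM, above all injured libraries. The course of 1.35 ± 0.37 passed the test (adjusted p = 0.0325), but the call was lost in 9 of 30 alternatives, among them with animal KO-126 kept in (adjusted p = 0.0528) without the injured 4 wpc library of animal KO-169 or KO-176, and without the injured 2 wpc library of animal KO-135 (adjusted p = 0.0741). *Ndrg1*, a gene of myelinating Schwann cells mutated in an inherited demyelinating neuropathy, was at 953, 756, 597 and 812 CPM at 2 wpc and at 2560, 1590, 2170 and 1310 CPM at 4 wpc. The 2 groups lay apart, and *Ndrg1* rose by 1.15 ± 0.27 (adjusted p = 0.0114).

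Other myelin genes did not pass. *Pmp22* and *Mbp*, a membrane and a cytoplasmic protein of compact myelin, had courses of 1.23 (adjusted p = 0.101) and 0.88 (adjusted p = 0.223). *Nfasc*, the adhesion molecule of the node and paranode, had an adjusted p of 0.0355 with a log2 fold change of 0.89, under the limit of 1. *Mag*, the adhesion molecule that faces the axon, had a course of -0.11. With the animal as a block 7 myelin members were called, and 2 to 9 when single libraries were left out. Of 24 cholesterol synthesis genes none was called (median 0.15). Among 20 fatty acid synthesis genes (median 0.2) none was called.

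Neither repair Schwann cell genes nor regulators of myelination were called along the course. Of 22 repair genes 18 had a negative course, with a median of -0.47, and of 19 tested myelination transcription factors 11 did, with a median of -0.37. *Ngfr*, the neurotrophin receptor of immature and repair Schwann cells, was at 297.4, 205.5, 610 and 348.5 CPM at 2 wpc and at 744.1, 176.9, 181.7 and 159.7 CPM at 4 wpc. Animal KO-169 held the highest level of all, and the other 3 libraries of 4 wpc lay below those of 2 wpc. With both nerves of animal KO-169 left out, 4 repair members were called lower, in place of none.

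**Figure D2:**
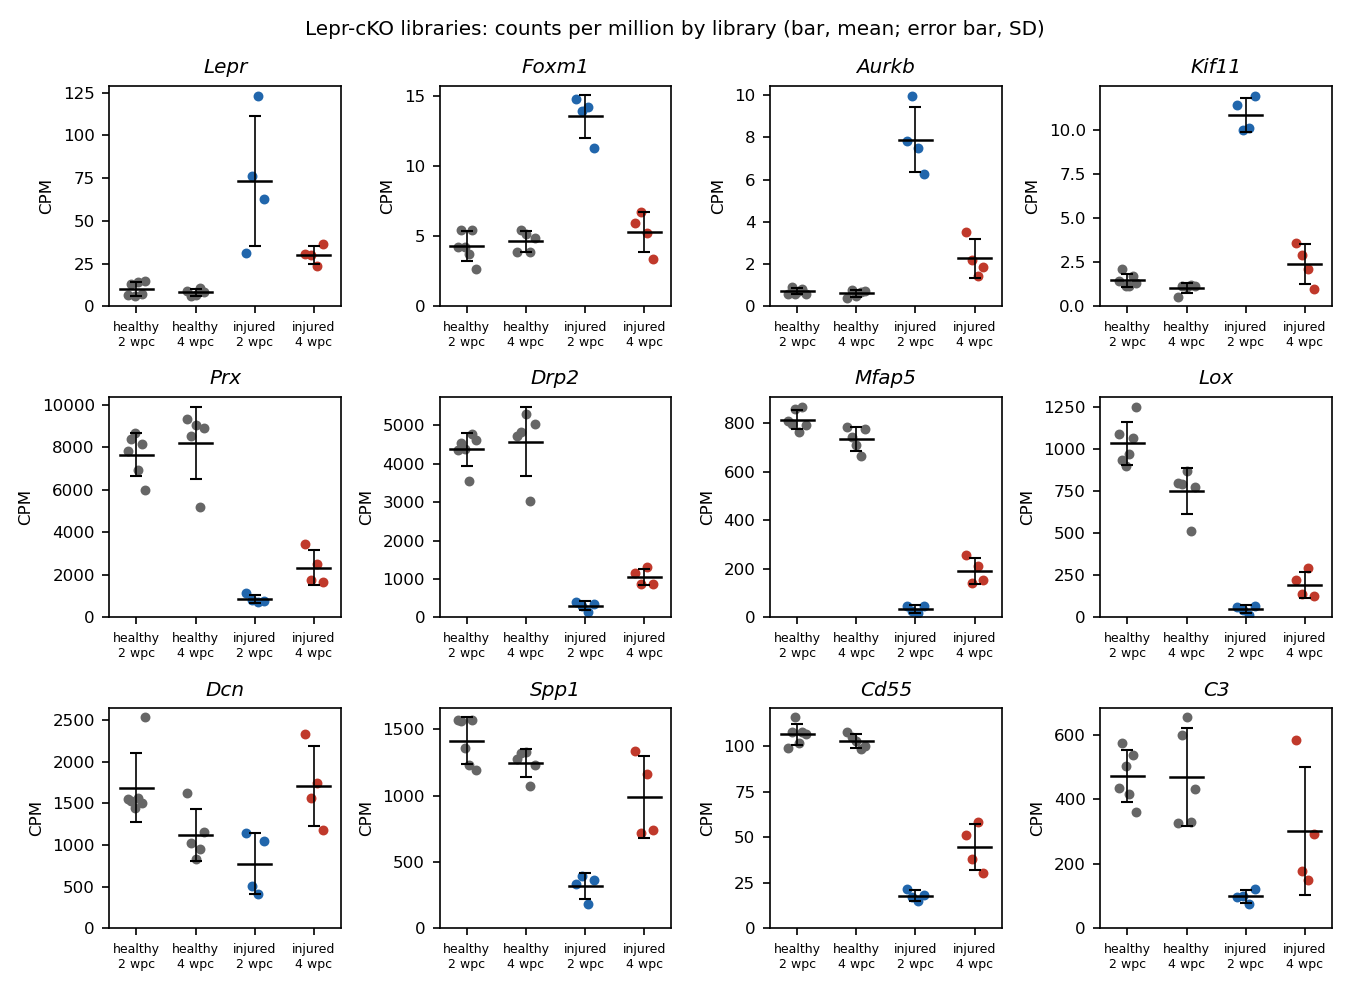
CPM of 12 genes in each *Lepr*-cKO library, by nerve and time, with points for libraries, bars for means and error bars for SD (6 healthy 2 wpc, 5 healthy 4 wpc, 4 injured 2 wpc and 4 injured 4 wpc libraries). *Foxm1*, *Aurkb* and *Kif11* are high at 2 wpc and lower at 4 wpc, where *Aurkb* remains above all healthy libraries, *Prx*, *Drp2*, *Mfap5*, *Lox* and *Cd55* remain below all healthy libraries at 4 wpc, and the injured libraries of the 2 times do not overlap in these 8 genes.

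Fibroblast genes were the list with the most called members, 6 of 18 higher (against 1.51% of tested genes) and 0 lower, with a median course of 1.2. The median was 0.69 in injured and -0.36 in healthy nerves. In injured nerves alone 4 were called higher and 1 lower (against 2.7 and 3.09% of tested genes). *Mfap5* (chr6:122505845-122529290, plus strand), a glycoprotein of elastic microfibrils, was at 46.3, 25.7, 16.1 and 48.4 CPM at 2 wpc and at 257, 141, 213 and 153 CPM at 4 wpc. Healthy nerves held 664 to 866 CPM. The 3 ranges did not overlap, with 4 wpc between the others, and *Mfap5* rose by 2.63 ± 0.35 (adjusted p = 4.11e-05) and stayed called in the 30 alternatives, with log2 fold changes of 2.25 to 2.86.

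*Dcn*, the collagen-binding proteoglycan decorin, was at 1140, 507, 414 and 1050 CPM at 2 wpc and at 2340, 1560, 1750 and 1180 CPM at 4 wpc. Its 4 wpc libraries lay above those of 2 wpc, with animals KO-169 and KO-176 above the healthy 4 wpc range of 838 to 1630 CPM and the other 2 within it. The healthy 2 wpc range reached higher, and animals KO-169 and KO-176 lay within it. The mostly lower level of healthy nerves at 4 wpc thus added to the course. *Dcn* rose by 1.73 ± 0.43 (adjusted p = 0.0188), a call lost with animal KO-126 kept in (adjusted p = 0.0782) and without the injured 2 wpc library of animal KO-135. *Clec3b* (tetranectin, 2.36), *Serpinf1* (pigment epithelium-derived factor, 1.45), *Gsn* (the actin-severing protein gelsolin, 1.32) and *Osr2* (a transcription factor of mesenchyme, 1.24) were called with adjusted p values of 0.0242 to 0.0389. In *Osr2* the healthy part (-0.67) was larger than the injured part (0.57), and the call was lost without the injured 2 wpc library of animal KO-135 (adjusted p = 0.0571). The summed level of the 18 genes was 1620 to 2690 CPM in injured nerves at 2 wpc and 3110 to 5430 CPM at 4 wpc. Healthy nerves held 4820 to 6950 CPM at 2 wpc and 3560 to 5440 CPM at 4 wpc. The number of members called was 2 with animal KO-126 kept in, 8 with the animal as a block, and 1 without the injured 2 wpc library of animal KO-135. As *Mfap5* stayed called there, *Clec3b*, *Serpinf1* and *Gsn* also lost the call without that library.

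*Lox*, the enzyme that cross-links collagen and elastin, was at 61.31, 46.31, 15.01 and 69.06 CPM at 2 wpc and at 220.76, 139.29, 292.33 and 124.96 CPM at 4 wpc. Healthy nerves held 898 to 1250 CPM at 2 wpc and 514 to 871 CPM at 4 wpc. Injured libraries lay below both, with 4 wpc above 2 wpc, and *Lox* rose by 2.48 ± 0.44 (adjusted p = 0.000856). It was the 1 member called of 24 collagen and cross-linking genes (median 0.2), against 1.51% of tested genes called higher. *Col1a1* and *Col3a1*, the main fibrillar collagens, had courses of -0.11 and 0.23. Of 22 matrix proteases and inhibitors 1 was called higher and 2 lower (against 1.51 and 0.587% of tested genes).

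Members of the lists of immune genes were called one by one. *Spp1* (chr5:104435118-104441050, plus strand), the secreted phosphoprotein osteopontin, was at 336, 397, 182 and 364 CPM at 2 wpc and at 1340, 719, 1160 and 738 CPM at 4 wpc, against 1070 to 1570 CPM in healthy nerves. The groups of injured libraries lay apart, with 2 of the 4 wpc libraries back in the healthy range. *Spp1* rose by 1.81 ± 0.26 (adjusted p = 7.03e-05). It was the 1 member called of 22 genes in the list of lipid-handling phagocytes (median 0.38), against 1.51% of tested genes called higher. In injured nerves *Spp1* lay below or within its healthy range, while the macrophage sum given below lay above its own. The cell source of *Spp1* was not tested. *Abca1*, the cholesterol exporter, was at 570 to 696 CPM at 2 wpc and 267 to 494 CPM at 4 wpc, with an adjusted p of 0.0283 and a log2 fold change of -0.84, under the limit of 1. *Apoe* (-0.17) and *Gpnmb* (0.14), markers of lipid-laden macrophages, were not called. Of 24 macrophage genes none was called (median 0.47, with 0.06 in injured and -0.34 in healthy nerves). Their sum was 1730 to 3230 CPM at 2 wpc and 1670 to 2750 CPM at 4 wpc, against healthy sums starting at 333 CPM.

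Of 20 complement genes, 2 were called higher and 0 lower (against 1.51 and 0.587% of tested genes), with a median of 0.71. *Cd55*, which speeds the decay of complement convertases on the cell surface, was at 21.8, 17, 15.2 and 18.1 CPM at 2 wpc and at 51.5, 38.3, 58.2 and 30.6 CPM at 4 wpc. Healthy libraries held 98.7 to 116 CPM, and the 3 ranges did not overlap. *Cd55* rose by 1.36 ± 0.25 (adjusted p = 0.00163), a call lost with animal KO-126 kept in (adjusted p = 0.2). *C3*, the central complement protein, was at 96.9, 100.8, 75.9 and 121.7 CPM at 2 wpc and at 585.7, 177.2, 150.2 and 294.5 CPM at 4 wpc, with animal KO-169 highest and no overlap. Its course of 1.62 ± 0.4 (adjusted p = 0.0165) was lost with the animal as a block (adjusted p = 0.197), with animal KO-126 kept in (adjusted p = 0.14) and without the injured 4 wpc library of animal KO-169.

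*Gabarapl1*, an ATG8 family protein of the autophagosome membrane, was at 84.4, 104, 90.7 and 89.7 CPM at 2 wpc and at 185, 163, 172 and 204 CPM at 4 wpc, against 289 to 394 CPM in healthy nerves. The 3 ranges lay apart with small spread, and *Gabarapl1* rose by 1.1 ± 0.17 (adjusted p = 0.000158). It was the 1 called of 26 autophagy genes (median 0.12), against 1.51% of tested genes called higher. Of 28 lysosome genes (median 0.1) 1 was called higher (against 1.51% of tested genes). It was *Ctsk*, a collagen-degrading cathepsin (1.23, adjusted p = 0.0396). The call was lost in 13 of 30 alternatives, among them without the injured library of animal KO-135 or of animal KO-169. Of 24 interferon response genes 0 were called, 22 had a negative course and the median was -0.59. Chemokines (29, median -0.39) and MHC class II genes (11, median -0.1) held no call.

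**Figure D3:**
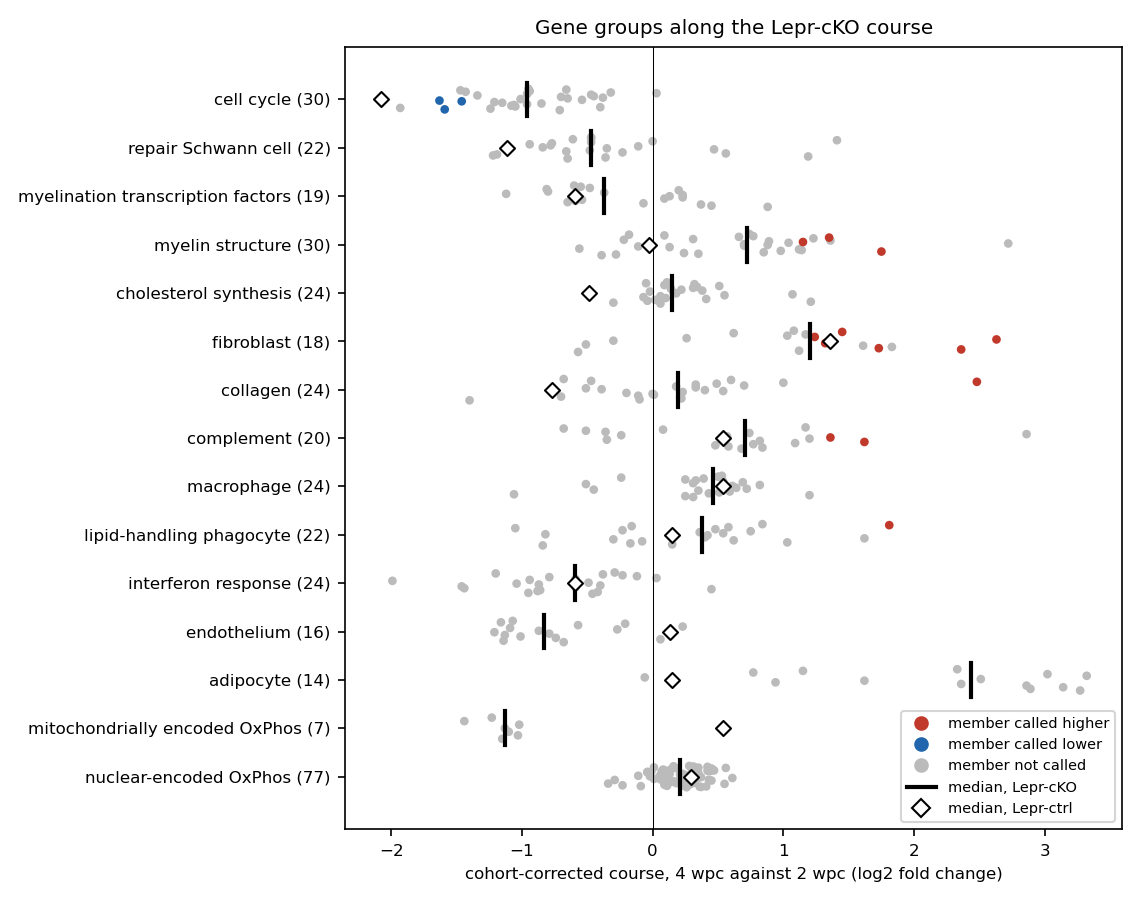
Cohort-corrected log2 fold change of each tested member of 15 gene lists in *Lepr*-cKO, with the number of members in brackets, red and blue points for members called higher and lower, a bar for the *Lepr*-cKO median and a diamond for the *Lepr*-ctrl median. Fibroblast members (median 1.2) hold 6 red points, and the cell cycle list (median -0.96) holds 3 blue ones. The medians of the genotypes lie on opposite sides of 0 for mitochondrially encoded OxPhos genes (-1.13 and 0.54). They also do so for myelin structure (0.72 and -0.03), cholesterol synthesis (0.15 and -0.48), collagen (0.2 and -0.77) and endothelium (-0.83 and 0.13).

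The genes with the greatest rise, among called genes above a mean log2 CPM of 1 whose injured libraries did not overlap, lay below the healthy level in most injured libraries. *Cyp4f14*, a cytochrome P450 of the fatty acid-oxidizing 4F family, was at 1.65, 1.88, 0.445 and 1.73 CPM at 2 wpc and at 15.7, 5.65, 14.1 and 9.33 CPM at 4 wpc, against 14.7 to 21.8 CPM in healthy nerves. Animal KO-169 was back within the healthy range and the other 4 wpc libraries were below it. *Cyp4f14* rose by 2.98 ± 0.39 (adjusted p = 3.38e-05). *Plk5*, a member of the polo-like kinase family, was at 4.23, 1.84, 1.01 and 1.47 CPM at 2 wpc and at 12.8, 11.3, 22.5 and 6.93 CPM at 4 wpc, far under its healthy 221 to 405 CPM in all 8 libraries. *Plk5* rose by 2.67 ± 0.45 (adjusted p = 0.000571).

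*Mfap5*, described above, was among these genes, and the other 5 were at or below 1.05 CPM at 2 wpc. *Cnmd*, a cartilage and tendon glycoprotein, was at 0.202 to 0.55 CPM at 2 wpc and 0.648 to 5.06 CPM at 4 wpc (course 2.98, adjusted p = 0.00103). *Mchr1*, the receptor of melanin-concentrating hormone, was at 0.0405 to 0.479 CPM and 0.583 to 1.8 CPM (2.73, adjusted p = 0.00475). *Slco4c1*, an organic anion transporter, was at 0.0326 to 0.243 CPM and 0.493 to 1.1 CPM (2.68, adjusted p = 0.0304, and 0.112 with the animal as a block). The lincRNA *AC156546.1* had 6 counts over the 4 libraries of 2 wpc and 74 over those of 4 wpc, a ratio per count sequenced of 17.6 with a 95% counting interval of 7.72 to 49.5, and a course of 4.21 (adjusted p = 9.34e-06). *A330015K06Rik* had a course of 2.97 (adjusted p = 8.12e-06), but it is an antisense gene, and the library kit does not keep strand, so that its reads and those of the opposite gene cannot be told apart.

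The genes with the greatest fall were led by genes that were high in the 2 wpc libraries of animals KO-128 and KO-135. *Disp2*, a relative of the Hedgehog-releasing protein Dispatched, was at 6.86, 19.7, 45.8 and 3 CPM at 2 wpc and at 0.884, 0.932, 0.7 and 2.46 CPM at 4 wpc, with a healthy median of 0.44 CPM at 2 wpc. *Ret*, the receptor kinase of the GDNF family, was at 12.9, 26.6, 72.3 and 5.6 CPM at 2 wpc and at 3.85, 5.32, 3.8 and 4.79 CPM at 4 wpc. *Dll1*, a Notch ligand, was at 5.59, 9.65, 51.9 and 7.2 CPM at 2 wpc and 1.59 to 2.05 CPM at 4 wpc. In all 3 genes animal KO-135 was highest, and the groups did not overlap even so.

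*Disp2* fell by 3.83 ± 0.89 (adjusted p = 0.0113), *Ret* fell by 2.5 ± 0.6 (adjusted p = 0.0135) and *Dll1* fell by 2.72 ± 0.75 (adjusted p = 0.0351). Without the injured 2 wpc library of animal KO-135 none of these 3 was called, *Dll1* was also lost without the injured 4 wpc library of animal KO-169, and with the animal as a block the adjusted p was 0.128 for *Ret* and 0.195 for *Dll1*. *Sh2d5*, which encodes an SH2 domain protein, was at 2.22 to 17.1 CPM at 2 wpc and 0.601 to 1.62 CPM at 4 wpc, and fell by 3.2 (adjusted p = 0.0122). *Slc52a3*, a riboflavin transporter, was at 10.1 to 49.8 CPM and 6.29 to 9.91 CPM, and fell by 2.27 (adjusted p = 0.00238). Both stayed called in the 29 and 30 alternatives run for them.

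*Adamts1*, a protease of proteoglycans, was at 46.5, 46.8, 547 and 73.7 CPM at 2 wpc and 12.6 to 31.2 CPM at 4 wpc. Animal KO-135 lay far above the other libraries. The course was -2.28 (adjusted p = 0.0249), and the call was lost without animal KO-135 and with the animal as a block (adjusted p = 0.295). *Adamts4*, a related protease, was at 24.2 CPM in animal KO-135 and 4.04 to 6.74 CPM in the other 7 injured libraries (course -1.86, adjusted p = 0.0258, and 0.178 with the block). Its injured part was -0.65 (adjusted p = 0.227) and its healthy part, 1.2, was the larger, and without animal KO-135 the course was -0.89 (adjusted p = 0.194). *Htr1b*, a serotonin receptor, was at 6.31 to 8.09 CPM at 2 wpc and 1.49 to 3.46 CPM at 4 wpc (course -2.04, adjusted p = 0.0274), a call lost in 6 of 29 alternatives, among them without animal KO-135 (adjusted p = 0.052).

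Single members of other lists were called, against 1.51% of tested genes called higher and 0.587% called lower. *Cntf*, a neurotrophic cytokine of myelinating Schwann cells, was at 0.463, 0.442, 0.405 and 0.261 CPM at 2 wpc and at 2.09, 0.439, 1.35 and 1.62 CPM at 4 wpc, with animal KO-175 at the 2 wpc level and the other 3 above it (course 2.3 ± 0.44, adjusted p = 0.00236). *Kcnk1*, a potassium leak channel, was at 6.19 to 33.2 CPM and 42.8 to 85.2 CPM (2.08, adjusted p = 0.0145). *Cntn1*, an adhesion molecule of axons and paranodes, was below 1 CPM in all 8 injured libraries and at 10.7 to 23 CPM in healthy ones (-1.94, adjusted p = 0.0382, and 0.0716 with the block), a call also lost without the injured library of animal KO-169. *Fosl2* and *Ier3*, immediate-early genes, fell by 1.06 (adjusted p = 0.0129) and by 1.03 (adjusted p = 0.0389), and lost the call in 1 of 30 and 15 of 30 alternatives. The one for *Fosl2* was without the injured library of animal KO-135 (adjusted p = 0.0552), which with that of animal KO-169 was also among those for *Ier3*. Across the gp130 cytokines (13, median -0.22), the neurotrophic factors (20, median -0.18), the ErbB ligands and receptors (10, median -0.02), nodal genes (16, median -0.21) and Schwann cell ion channels (16, median -0.3), no further member was called.

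Markers of other cell types moved within the injured groups. The summed level of 16 endothelial genes was 1050, 2970, 5130 and 1450 CPM at 2 wpc and 874, 1090, 1250 and 2690 CPM at 4 wpc, against 704 to 1260 CPM in healthy nerves. Animals KO-128 and KO-135, the libraries with the highest *Ret* and *Disp2*, were also the highest of 2 wpc here. No endothelial gene was called (median -0.83, 14 of 16 negative), *Pecam1*, the platelet endothelial adhesion molecule, having a course of -1.09 (adjusted p = 0.198) and *Cdh5*, the endothelial cadherin, -1.14 (adjusted p = 0.119). The part of vessel content in the other results was not tested.

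Adipocyte markers were high in single libraries of either time. The summed level of 14 genes was 106.5, 151.7, 129.3 and 488.2 CPM at 2 wpc and 325.9, 130.2, 780.8 and 815.6 CPM at 4 wpc, and 175.7 to 656.7 CPM in healthy nerves. *Adipoq*, which defines adipocytes, was at 0.0579, 0.147, 0 and 10.4 CPM at 2 wpc and at 7.11, 0.274, 32 and 29.2 CPM at 4 wpc. No adipocyte gene was called, with a median of 2.43 and 13 of 14 positive. The part of adipocyte content in the other results was not tested.

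Of the 27 skeletal muscle genes 21 were tested, and their summed level was 42.8 to 69.1 CPM in injured and 51.3 to 97.7 CPM in healthy nerves. Of the 21, 1 was called higher (against 1.51% of tested genes). It was *Casq1*, a calcium-binding protein (1.49 ± 0.36, adjusted p = 0.0144), with 2.43 to 10.3 CPM at 2 wpc, 12.4 to 24.1 CPM at 4 wpc and 24.7 to 29.8 CPM in healthy nerves. With animal KO-126 kept in, its course was -3.46 (adjusted p = 0.124). Perineurial (12, median 0.73), pericyte and smooth muscle (12, median -0.33), T cell (15, median 0.72), B and plasma cell (5, median 0.81), mast cell (10, median 0.88), neutrophil (7, median -0.67) and erythrocyte genes (5, median -0.08) held no call.

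The mitochondrial share of counts differed between the times with wide spread. Mitochondrially encoded protein genes took 12, 17.7, 28.1 and 13.9% of counts in the injured libraries of animals KO-125, KO-128, KO-135 and KO-138 at 2 wpc, and 2.79, 11.1, 8.78 and 18% in animals KO-169, KO-175, KO-176 and KO-177 at 4 wpc. Healthy nerves held 1.82 to 2.3% at 2 wpc and 1.98 to 3.61% at 4 wpc. Injured nerves were above the healthy nerve of the same mouse in all 8 animals, least in animal KO-169, and the injured groups overlapped.

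The log2 ratio of the injured to the healthy nerve of each mouse was 2.68, 3.28, 3.61 and 2.65 at 2 wpc (3.05 ± 0.47, SD, n = 4) and 0.36, 2.49, 2.12 and 2.32 at 4 wpc (1.82 ± 0.99, SD, n = 4). The 2 groups of ratios did not overlap. The ratio of animal KO-177, 2.32, rests on a healthy share of 3.61%, against 1.98 to 2.18% in the other healthy 4 wpc libraries. Their difference was -1.23, with p = 0.0286 in a two-sided exact permutation test, the smallest value that 4 against 4 animals allow. With animal KO-126 kept in it was -0.9 (permutation p = 0.183), and for injured libraries alone -1.02 (permutation p = 0.143). Without animal KO-169 it was -0.75 (permutation p = 0.0857), and without animal KO-135 -1.05 (permutation p = 0.0857).

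Of the 13 mitochondrially encoded OxPhos genes 7 were tested, 0 were called, all 7 had a negative course of -1.44 to -1.02 and the median was -1.13. *mt-Nd5*, a subunit of complex I, was at 7750, 10300, 29300 and 7770 CPM at 2 wpc and at 2060, 6080, 5190 and 10900 CPM at 4 wpc, with animal KO-177 above 3 of the 2 wpc libraries (course -1.44, adjusted p = 0.116). Of 77 nuclear-encoded OxPhos genes 0 were called, and the median was 0.21, with 0 in injured and -0.19 in healthy nerves. Their summed level was 5400 to 5810 CPM at 2 wpc and 5540 to 6340 CPM at 4 wpc, narrow and overlapping ranges. Genes of the citric acid cycle and fatty acid oxidation (26, median 0.15), glycolysis (24, median 0.15), mitochondrial biogenesis (16, median -0.05), mitochondrial ribosomes (78, median 0.08), cytosolic ribosomes (82, median 0.02) and heat shock (14, median 0.16) held no call.

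**Figure D4:**
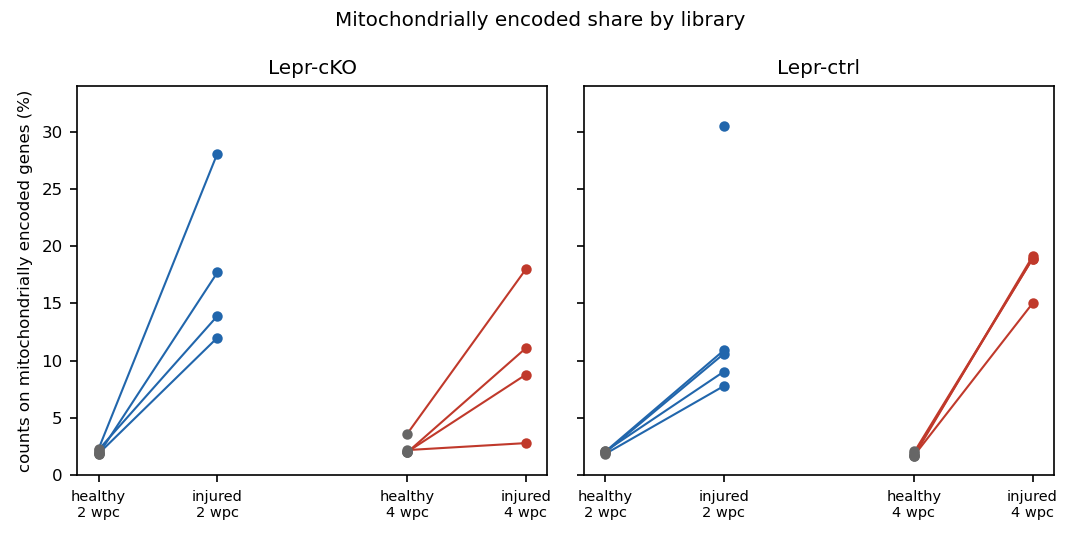
Percent of counts on mitochondrially encoded protein genes in each library, with lines joining the healthy and the injured nerve of the same mouse, in *Lepr*-cKO (left, without animal KO-126) and *Lepr*-ctrl (right). In *Lepr*-cKO the injured libraries lie at 12 to 28.1% at 2 wpc and 2.79 to 18% at 4 wpc, and the lowest line at 4 wpc is that of animal KO-169.

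The healthy cohorts differed in clock genes and immediate-early genes, and most of these were not called along the course. Of 18 circadian clock genes 3 were called higher and 3 lower between the healthy cohorts (against 0.0435 and 0.169% of tested genes). Along the course 1 was called, lower (against 0.587% of tested genes). *Arntl*, the core activator of the clock, was at 5.65 to 9.22 CPM in healthy 2 wpc and 26.6 to 38.1 CPM in healthy 4 wpc nerves. In injured nerves it was at 8.11, 3.72, 4.61 and 4.79 CPM and at 21.9, 16.4, 23.1 and 13.2 CPM. Both nerves thus differed between the cohorts without overlap, and the course was -0.37 (adjusted p = 0.555). *Ciart*, a clock-controlled repressor, went the other way, at 9.22 to 16 and 3.35 to 6.62 CPM in healthy nerves, with a course of -0.21. *Nfil3*, a clock-output repressor, was called along the course (-1.48, adjusted p = 0.0125), with an injured part of -0.17 (adjusted p = 0.699) and a healthy part of 1.31. Its healthy level was 1.27 to 2.1 CPM at 2 wpc and 3.02 to 4.76 CPM at 4 wpc, while injured nerves held 6.25 to 13.3 and 6.3 to 10 CPM. The *Nfil3* call was lost with the animal as a block (adjusted p = 0.0756).

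Of 22 immediate-early genes 9 were called lower in the healthy 4 wpc cohort and 14 in the injured 4 wpc nerves, and along the course 2 were called lower (against 0.169, 3.09 and 0.587% of tested genes). *Fosb* was at 15.2 to 152 CPM in healthy 2 wpc and 0.767 to 2.99 CPM in healthy 4 wpc nerves, and at 22.8 to 164 and 1.53 to 3.17 CPM in injured nerves, with a course of 0.45 (adjusted p = 0.862). *Fosb*, like the clock genes above other than *Nfil3*, was chosen after its values were seen.

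Clock genes are known for E-boxes and for ROR elements in their promoters. The E-box letters CACGTG were present in the 200 bases before the start in 5.26% of all RefSeq entries and in 6.85% of those of tested genes, and TAGGTCA on either strand in 1.78 and 1.26%. Of the 18 clock genes 15 matched, and 6 of their 20 entries (30%) held CACGTG. The windows of *Ciart* (chr3:95882229-95882428, minus strand) and *Nfil3* (chr13:52981040-52981239, minus strand) are shown, since both were called between the healthy cohorts, *Ciart* lower and *Nfil3* higher at 4 wpc. Capitals mark 3 E-boxes in *Ciart*, at 116, 58 and 44 bases from the start, and in *Nfil3* 1 ROR element on the opposite strand at 12 bases.
Ciart: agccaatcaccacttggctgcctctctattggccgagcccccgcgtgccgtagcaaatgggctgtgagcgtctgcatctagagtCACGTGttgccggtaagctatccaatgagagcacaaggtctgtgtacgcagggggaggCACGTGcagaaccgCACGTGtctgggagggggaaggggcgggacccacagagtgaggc
Nfil3: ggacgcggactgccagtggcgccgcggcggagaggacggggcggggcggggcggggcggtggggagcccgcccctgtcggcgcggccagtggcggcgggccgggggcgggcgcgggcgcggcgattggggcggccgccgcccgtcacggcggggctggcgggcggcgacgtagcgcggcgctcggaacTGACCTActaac

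The course of *Lepr*-ctrl mice was computed the same way from 19 other libraries, with 902 genes called (4.9%), 325 higher (1.77%) and 577 lower (3.14%). Of the 277 genes higher in *Lepr*-cKO, 112 (40.4%) were also called higher in *Lepr*-ctrl and 265 (95.7%) had the same sign, with a median of 1.05. Of the 108 lower genes, 56 (51.9%) were called and 102 (94.4%) had the same sign, with a median of -1.3. No gene was called in opposite directions. Seen from *Lepr*-ctrl, 112 of 325 higher genes (34.5%) and 56 of 577 lower genes (9.71%) were called in *Lepr*-cKO.

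The difference between the 2 courses was tested for every gene. In edgeR 0 genes were called, with 1565 at an unadjusted p under 0.05, and DESeq2 called 2, *AC156546.1* and *Nlgn1*, both named here after their values were seen. An unadjusted p under 0.05 in that edgeR test was found for 57 of the 277 higher and 24 of the 108 lower genes, against 1565 of all 18394. The 277 and 108 genes were chosen for their *Lepr*-cKO course, which is part of the difference tested. Their counts therefore do not measure a genotype effect. No gene of the *Lepr*-cKO course is therefore called particular to that genotype.

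Without such a call, values of the 2 courses stand side by side. The cell cycle median was -0.96 in *Lepr*-cKO and -2.08 in *Lepr*-ctrl, where 24 of 30 genes were called lower. *Foxm1* fell by 1.46 in *Lepr*-cKO and by 2.43 in *Lepr*-ctrl, a difference of 0.97 ± 0.42 (unadjusted p = 0.0256, adjusted p = 0.553). *Top2a* differed by 2.04 (unadjusted p = 0.00409). The myelin median was 0.72 against -0.03, and *Prx* differed by 1.34 ± 0.52 (unadjusted p = 0.014, adjusted p = 0.532), with a course of 0.02 in *Lepr*-ctrl. The fibroblast medians were 1.2 and 1.35, with 9 of 18 genes called higher in *Lepr*-ctrl, *Mfap5* at 1.84 ± 0.34 among them.

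*Lepr* had a course of 0.22 ± 0.43 in *Lepr*-ctrl, from 31.9 to 68 CPM at 2 wpc and 20.6 to 71.5 CPM at 4 wpc, and the difference between the courses was -1.2 ± 0.62 (unadjusted p = 0.0602, adjusted p = 0.59). *Pou3f1*, a transcription factor of promyelinating Schwann cells, fell by 1.9 in *Lepr*-ctrl (adjusted p = 0.014), with a difference of 1.53 (unadjusted p = 0.0403). Mitochondrially encoded OxPhos genes had a median of 0.54 in *Lepr*-ctrl, and the difference for *mt-Nd5* was -1.92 (unadjusted p = 0.0111, adjusted p = 0.532). The mitochondrial share of injured *Lepr*-ctrl nerves was 13.8 ± 9.44% (SD, n = 5) at 2 wpc and 17.9 ± 1.97% (SD, n = 4) at 4 wpc, the 2 wpc spread including 1 library at 30.5%.

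In edgeR's test of the difference the smallest unadjusted p values belonged to *AC156546.1* (3.59), *Fbxo10*, an F-box protein of ubiquitin ligases (1.08), and *Tmem25*, a membrane protein (1.78), which were higher along the *Lepr*-cKO course, and to *Wdr43*, a nucleolar protein (-0.65), *Mrps18c*, a mitochondrial ribosomal protein (-1.14), and *Map7d2*, a microtubule-binding protein (-2.1), which were lower. Their adjusted p values in edgeR were 0.303 to 0.522. *Fbxo10* was at 10.4 to 12 CPM at 2 wpc and 13.9 to 19.9 CPM at 4 wpc in injured *Lepr*-cKO nerves, with a course of 0.42 there and -0.66 in *Lepr*-ctrl.

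**Figure D5:**
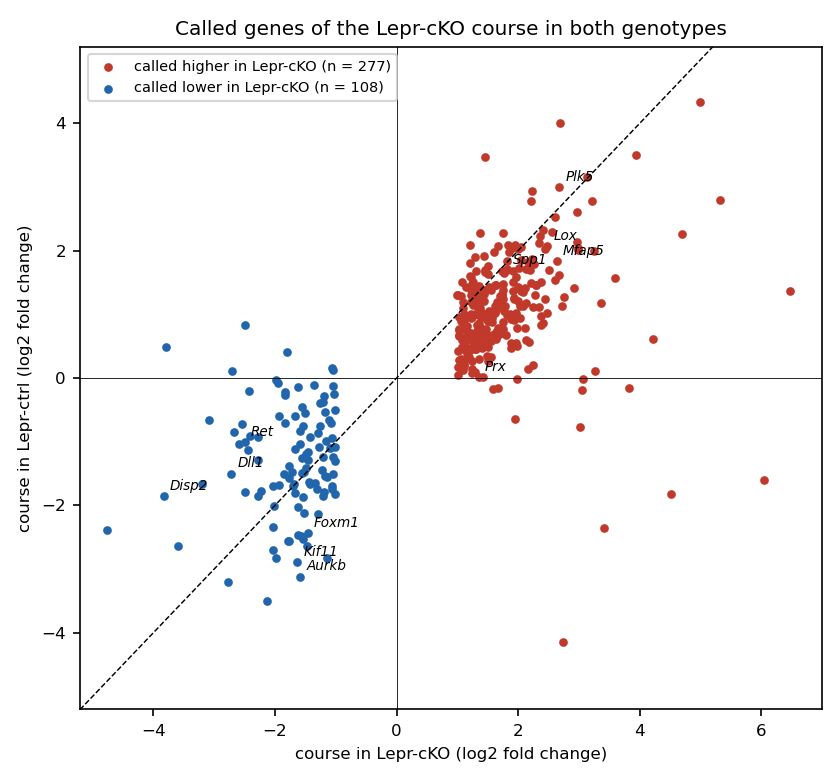
Cohort-corrected log2 fold change of the 277 genes called higher (red) and the 108 called lower (blue) in *Lepr*-cKO, with the *Lepr*-cKO course on the x axis, the *Lepr*-ctrl course on the y axis and a dashed line of equality. In *Lepr*-ctrl 265 of the red points lie above 0 and 102 of the blue points below 0, with *Foxm1*, *Kif11* and *Aurkb* below the dashed line and *Prx* near 0 on the y axis.

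The *Lepr*-ctrl libraries were not part of the contrast that chose these genes. They did enter the joint fit, and so its filter, normalization and estimate of spread. The shares below are therefore not independent of the choice. In *Lepr*-ctrl, 48.7% of the 277 genes had all injured 4 wpc libraries above all 2 wpc libraries, against 6.72% of tested genes, and 1 had them below. Of the 108 genes 67 (62%) had them below, against 6.89% of tested genes. Relative to healthy *Lepr*-ctrl nerves, 215 of the 277 genes (77.6%) were below all healthy libraries at 2 wpc and 188 (67.9%) at 4 wpc, against 23.8 and 27.9% of tested genes. Of the 108, 62 (57.4%) were above at 2 wpc and 31 (28.7%) at 4 wpc, against 24.2 and 27.2% of tested genes.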

How the data were processed

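Bulk RNA-seq libraries of mouse sciatic nerve endoneurium were sequenced by the authors with single reads (TruSeq RNA v2, without strand). Per the labels and the submitters' processing notes, bcl2fastq 2.20.0.422, STAR 2.5 and featureCounts 1.5.0-p1 were used with GRCm38. The strand setting and the handling of reads with several alignments are not given in the sources used here. The deposited values are raw read counts per gene, not normalized, for 55573 genes in 39 libraries, with totals of 10905806 to 45016322 (median 27752451). At such depth a level under 0.1 CPM rests on a few counts. Floors and counting intervals cover counting error only.

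From the counts, a joint model over 38 libraries (8 groups by genotype, nerve and time) was fitted in R 4.3.3 with edgeR 4.0.16 and limma 3.58.1 (TMM normalization, genes kept by edgeR's group-wise filter at 10 counts per library and 15 in total, prior count 2, quasi-likelihood test, Benjamini-Hochberg adjustment over 18394 genes). Within a group, replicates are nerves of separate mice. Both nerves of a mouse entered the main fit as separate libraries without a term for the animal. Its p values therefore do not use that pairing, which the alternative with the animal as a block does. The course was the contrast of injured 4 wpc minus 2 wpc, less the same in healthy nerves. CPM values use TMM factors. Gene names and positions came from GENCODE mouse release 21, on the same build, and named 99.9% of tested genes. Promoter sequences came from RefSeq (GRCm38.p6). The code was tested on simulated data.

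The libraries, gene lists and comparisons were chosen with earlier results of these data known. Named genes were *Lepr*, the study's qPCR genes, up to 8 called genes per direction with the largest change above a mean log2 CPM of 1 and without overlap of injured libraries, up to 3 called members of each list with others as examples, and, for the difference between genotypes, up to 3 genes per direction by unadjusted p. Some genes named by these rules are not reported here. The animal numbers in the sample titles pair both nerves of a mouse. In the 8 *Lepr*-cKO pairs the deviations from group means correlated at 0.007 to 0.404 over 5000 genes, above 0.1 in 7, and 17 of 17 pairs in the series were of 1 sex by their expression.

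Alternatives were DESeq2 1.42.0, its size factors, other expression filters, mitochondrially encoded genes left out, a term for sex, animal KO-126 kept in, *Lepr*-cKO libraries only, the animal as a block, calls made by adjusted p without the fold limit, and omission of single libraries. Leaving out both nerves of animal KO-169 or KO-177 was added after seeing the data.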

Additional observations from a re-analysis of the deposited data

Results flagged for a closer look

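Among 114 groups of 4 to 6 *Lepr*-cKO libraries (named genes and the mitochondrial share), 6 held a library far from the others of its group, and chance alone gives about 1 in 20. *Jun* was at 233 CPM in the injured 4 wpc nerve of animal KO-169, against 82.2 to 95.2 CPM in the other 3. *Shh*, a ligand of repair Schwann cells, was at 25.5 CPM in the same library, against 9.72 to 10.9 CPM. *Cyp4f14* was at 0.445 CPM in the injured 2 wpc nerve of animal KO-135, against 1.65 to 1.88 CPM. *Ier3* was at 35.8 CPM in the injured 4 wpc nerve of animal KO-177, against 16.4 to 18.5 CPM. *Tmem25* was at 0.927 CPM in the injured 2 wpc nerve of animal KO-125, against 0.749 to 0.774 CPM. The mitochondrial share was 3.61% in the healthy 4 wpc nerve of animal KO-177, against 1.98 to 2.18% in the other 4.

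In the library left out of the course, the injured 2 wpc nerve of animal KO-126, skeletal muscle genes took 7.04% of counts, against 0.00447 to 0.00949% in the 19 libraries used.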

How the results depend on the processing

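In *Lepr*-cKO, the course called 385 genes in edgeR. An adjusted p alone gave 624 and DESeq2 584, and single libraries left out gave 249 (without injured 2 wpc animal KO-135) to 510 (without injured 2 wpc animal KO-125), with 254 without injured 4 wpc animal KO-176. Leaving out both nerves of animal KO-169 gave 437 calls (247 higher, 190 lower), which moved the split, and of animal KO-177 gave 296. The animal as a block gave 370, of which 278 were among the 385.

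Injured nerves alone gave 1064 calls, 3239 by adjusted p alone, 539 among genes with at least 10 counts in every library, and 886 to 1234 with single libraries left out. Healthy nerves gave 39 calls, and as a percentage of the 18394 genes tested this was 0.212%, with 0.669% by adjusted p alone, 0.321% in DESeq2, 0.12% with animal KO-126 kept in, 0.087% in a fit of *Lepr*-cKO libraries only, and 0.0707% (without healthy 4 wpc animal KO-179) to 0.25% with single libraries left out. Healthy 4 wpc animals KO-175, KO-176 and KO-169 and healthy 2 wpc animals KO-138 and KO-136 gave 0.0815, 0.0979, 0.136, 0.087 and 0.13% when left out. The *Lepr*-ctrl course gave 902, 1954 by adjusted p alone and 671 to 1191 with single libraries left out.

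The difference between genotypes gave 0 calls in edgeR, also with the animal as a block, and 2 in DESeq2. Single libraries left out gave 0 to 6 (6 without injured 2 wpc *Lepr*-ctrl animal WT-144, 1 without injured 4 wpc *Lepr*-ctrl animal WT-178, 1 without injured 4 wpc *Lepr*-cKO animal KO-175). The mitochondrial share differed by -1.23 over pairs of nerves, -0.9 with animal KO-126 kept in, -1.02 with no replicate block, and -1.45 to -0.75 with single animals left out, where the threshold was missed without animal KO-169, KO-125, KO-128, KO-135 or KO-138. *Casq1* turned to -3.46 with animal KO-126 kept in. The other 40 called genes among those named by the rules above kept their direction in each alternative run. The causes of these changes were not tested.

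With 4 injured libraries per time, courses with SE near 0.5 pass the threshold only at large changes, and genes near 1 CPM rest on 15 to 42 counts per library.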

Other observations

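Several genes with small adjusted p values along the *Lepr*-cKO course lay outside the lists, and those named here were chosen after their values were seen. Whether the calls in this section hold in the alternatives was not tested. *Cmbl*, a hydrolase, was at 5.3, 5.75, 4.86 and 8.11 CPM in injured nerves at 2 wpc and at 19, 20.4, 22.7 and 19.2 CPM at 4 wpc, against 59.5 to 82 CPM in healthy nerves. The 3 ranges lay apart, and *Cmbl* rose by 1.97 ± 0.21 (adjusted p = 8.13e-07 in edgeR), and by 1.03 in *Lepr*-ctrl. *Cat*, the peroxisomal catalase, was at 93.9 to 107 CPM at 2 wpc, 194 to 245 CPM at 4 wpc and 361 to 509 CPM in healthy nerves, with a course of 1.1 ± 0.15 (adjusted p = 6.35e-05) and 1.11 in *Lepr*-ctrl. *Ech1*, an enzyme of fatty acid oxidation, had a course of 0.84 ± 0.11 (adjusted p = 4.36e-05) and *Idh2*, the mitochondrial isocitrate dehydrogenase, 0.89 ± 0.14 (adjusted p = 0.000339), both under the limit of 1.

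A further 4 genes, also chosen after their values were seen and from no fixed list, are known for expression in neurons. *Nefh*, the heavy neurofilament, was at 0.985, 0.626, 0.121 and 0.261 CPM at 2 wpc and at 3.32, 1.26, 3.5 and 2.01 CPM at 4 wpc, against 14.1 to 22.8 CPM in healthy nerves (2.05 ± 0.42, adjusted p = 0.00353). *Rims1*, a scaffold of presynaptic active zones, was at 0.319 to 0.405 CPM and 1.43 to 3.4 CPM (2.38 ± 0.36, adjusted p = 0.000172). *Pcsk1n*, an inhibitor of prohormone processing, was at 1.21 to 2.17 CPM and 5.65 to 13.8 CPM (2.42 ± 0.38, adjusted p = 0.000224), and *Calca*, which encodes CGRP, was at 0.145 to 0.566 CPM and 0.636 to 2.14 CPM (2.17 ± 0.54, adjusted p = 0.0177). In these 4 genes all injured libraries of 4 wpc lay above those of 2 wpc. Further mitotic genes fell as well, among them *Ect2* by 1.48 (adjusted p = 0.00384), *Ckap2l* by 1.61 (adjusted p = 0.0115) and *Kif15* by 1.78 (adjusted p = 0.0288).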
